A study of Mus musculus with 6 samples.

Results

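Lysosomal genes were followed in liver non-parenchymal cells of SRA-/- and wild type mice after acetaminophen. They comprised 39 genes chosen by symbol, for 12 proteases, 8 other hydrolases and activators, 7 membrane and cholesterol transport proteins, 5 parts of the proton pump, 3 transcription factors and 4 sorting receptors. All 39 were found among the 53546 genes counted. Total RNA came from 3 SRA-/- and 3 wild type libraries, all from male mice. SRA-/- mice lack scavenger receptor A, the macrophage receptor for modified lipoproteins that Msr1 encodes. The labels state neither strain nor age, nor which exon was disrupted. Every mouse of both genotypes had received acetaminophen at 400 mg/kg into the peritoneum 6 h earlier, so no comparison below measures a response to the drug. Non-parenchymal cells are what remains of a liver once hepatocytes are removed: Kupffer cells and other leukocytes, sinusoidal endothelium and stellate cells.

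Lysosomes are acidic compartments in which proteases, glycosidases and lipases break down material taken up from outside or delivered by autophagy. The vacuolar ATPase (V-ATPase) pumps in the protons, and sorting receptors carry newly made enzymes from the Golgi to the compartment. TFEB, TFE3 and MITF, transcription factors of the MiT/TFE family, bind an E-box in the promoters of many lysosomal genes, a site known as the CLEAR element. In the liver, Kupffer cells and sinusoidal endothelial cells are rich in lysosomes because they clear particles and macromolecules from the blood.

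Promoter windows were searched because the CLEAR element is known from the promoters of many, though not all, lysosomal genes. RefSeq's table (GRCm38.p6) held 41 windows, from 250 bases before to 50 after a start, for 32 members; Atp6v0d2, Atp6v1h, Ctsb, Ctsh, M6pr, Npc1 and Sort1 had none. The palindrome TCACGTGA, the core of the CLEAR element, was found in 7 of 41 member windows (17.1%), against 320 of 32851 windows of all genes (0.974%) and 262 of 21263 windows of protein-coding genes (1.23%). Among other lysosomal genes it was in 4 of 23 windows of membrane proteins (17.4%), 1 of 16 windows of V-ATPase subunits (6.25%) and 0 of 33 windows of hydrolases and activators. The 7 members with it were Atp6v0d1, Atp6v1a, Ctsa, Ctsd, Gla, Igf2r and Mcoln1. The shorter E-box CACGTG, which every TCACGTGA contains, was in 13 member windows (31.7%) and in 7.15% of all windows. The M-box core CATGTG, searched with its reverse complement CACATG, was in 8 member windows (19.5%) and in 14.2% of all windows. A match is a description of the letters and not a shown binding site.

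The windows below are those of the 2 members that stood apart between genotypes, Ctsk and Sorl1, and of the 3 most abundant members with TCACGTGA, Ctsd, Ctsa and Atp6v0d1. Each runs 5′ to 3′ on the gene's strand, and capitals mark CACGTG, TCACGTGA or CATGTG on either strand.
Ctsk, chr3:95498960-95499259, plus strand: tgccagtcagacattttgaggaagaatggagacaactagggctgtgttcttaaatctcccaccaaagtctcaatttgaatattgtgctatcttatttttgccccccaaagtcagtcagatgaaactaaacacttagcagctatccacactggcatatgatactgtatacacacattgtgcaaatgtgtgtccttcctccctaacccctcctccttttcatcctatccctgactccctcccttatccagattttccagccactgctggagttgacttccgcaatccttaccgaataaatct
Sorl1, chr9:42124248-42124547, minus strand: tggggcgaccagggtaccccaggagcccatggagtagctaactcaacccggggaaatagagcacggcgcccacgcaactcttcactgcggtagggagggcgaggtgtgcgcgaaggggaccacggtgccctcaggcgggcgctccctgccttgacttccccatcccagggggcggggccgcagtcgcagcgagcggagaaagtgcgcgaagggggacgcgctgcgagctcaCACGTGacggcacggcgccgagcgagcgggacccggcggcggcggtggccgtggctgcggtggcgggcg
Ctsd, chr7:142387778-142388077, minus strand: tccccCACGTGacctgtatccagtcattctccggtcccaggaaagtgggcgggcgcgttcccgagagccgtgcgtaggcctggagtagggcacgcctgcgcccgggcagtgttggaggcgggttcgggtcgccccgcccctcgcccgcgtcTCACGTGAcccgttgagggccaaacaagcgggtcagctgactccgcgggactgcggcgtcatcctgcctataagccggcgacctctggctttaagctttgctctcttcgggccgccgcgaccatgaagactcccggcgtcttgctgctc
Ctsa, chr2:164833523-164833822, plus strand: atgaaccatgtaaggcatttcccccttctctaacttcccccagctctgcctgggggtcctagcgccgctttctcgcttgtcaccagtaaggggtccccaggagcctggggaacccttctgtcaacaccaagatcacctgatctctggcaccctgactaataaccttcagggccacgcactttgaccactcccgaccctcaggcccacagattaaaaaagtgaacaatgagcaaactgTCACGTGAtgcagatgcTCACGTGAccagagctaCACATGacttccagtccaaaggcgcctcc
Atp6v0d1, chr8:105566015-105566314, minus strand: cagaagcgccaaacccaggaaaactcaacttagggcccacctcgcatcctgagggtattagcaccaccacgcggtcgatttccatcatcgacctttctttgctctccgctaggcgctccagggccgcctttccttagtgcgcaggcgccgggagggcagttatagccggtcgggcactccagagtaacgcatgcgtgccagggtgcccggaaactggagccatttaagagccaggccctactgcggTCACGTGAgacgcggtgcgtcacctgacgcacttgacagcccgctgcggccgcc

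No searched motif was in the Ctsk window, while the Sorl1 window had CACGTG 19 bases before the start. In Ctsd, TCACGTGA began 99 bases before the start and a further CACGTG 245 bases before it. Ctsa had TCACGTGA at 13 bases before the start and again from base 5 after it. Sorl1 and Ctsa each had a further window in the table, in which none of the motifs was found.

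The libraries held 23757203 to 44003902 counts. Markers of sinusoidal endothelium, Kupffer cells and stellate cells were present in all 6, and so were those of hepatocytes: 15 hepatocyte genes summed to 61384 to 130077 TPM in SRA-/- and 39484 to 92945 TPM in wild type libraries. TPM here are counts per kilobase of exon, scaled to sum to 1000000 in each library, and serve to compare genes. CPM are counts per 1000000 on library sizes adjusted by edgeR's TMM method, and serve to compare libraries. Msr1 gave 1848, 1005 and 925 counts in SRA-/- and 1123, 1936 and 3838 counts in wild type libraries. In CPM these are 40.2, 33.6 and 42.0 in SRA-/- and 38.6, 73.5 and 114 in wild type libraries. The log2 fold change of Msr1 was -0.96 ± 0.33 (SE; unadjusted p 0.0166 and adjusted p 0.9999 by edgeR). Wild type replicate 1 lay within the SRA-/- range, so a count over the whole gene does not by itself check the genotype labels. In a bulk sample, fewer cells of a type and less RNA per cell cannot be told apart.

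Levels of the members spanned more than 3 orders of magnitude. Prosaposin (Psap), the precursor of the saposins that help glycosidases act on sphingolipids, had the highest level, at 873 ± 77.9 TPM in SRA-/- and 845 ± 201 TPM in wild type libraries (SD, n = 3 each). After it came the cysteine protease gene Ctsl (438 ± 157 TPM in SRA-/- and 399 ± 98.5 TPM in wild type), Grn, the precursor of the granulins (367 ± 44.0 TPM in SRA-/- and 301 ± 65.4 TPM in wild type), and Ctsb (283 ± 2.89 TPM in SRA-/- and 292 ± 102 TPM in wild type). The lowest were the transcription factor genes Tfeb and Mitf and the pump subunit gene Atp6v0d2, which had 14, 6 and 12 counts in SRA-/- and 8, 6 and 0 counts in wild type libraries. Atp6v0d2 did not pass the filter on low counts, and its values lay near a floor of 6 counts, or 3 fragments whose mates were counted singly. Together the 39 genes summed to 3977, 3581 and 4372 TPM in SRA-/- replicates 1, 2 and 3 and to 2843, 4443 and 3949 TPM in wild type replicates 1, 2 and 3. The groups thus overlapped, with wild type replicate 1 lowest and wild type replicate 2 highest in TPM. In CPM the sums were 5889 to 7113 in SRA-/- and 5416 to 6311 in wild type libraries. They overlapped too, with wild type replicate 1 lowest and SRA-/- replicate 3 highest.

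**Figure D1:**
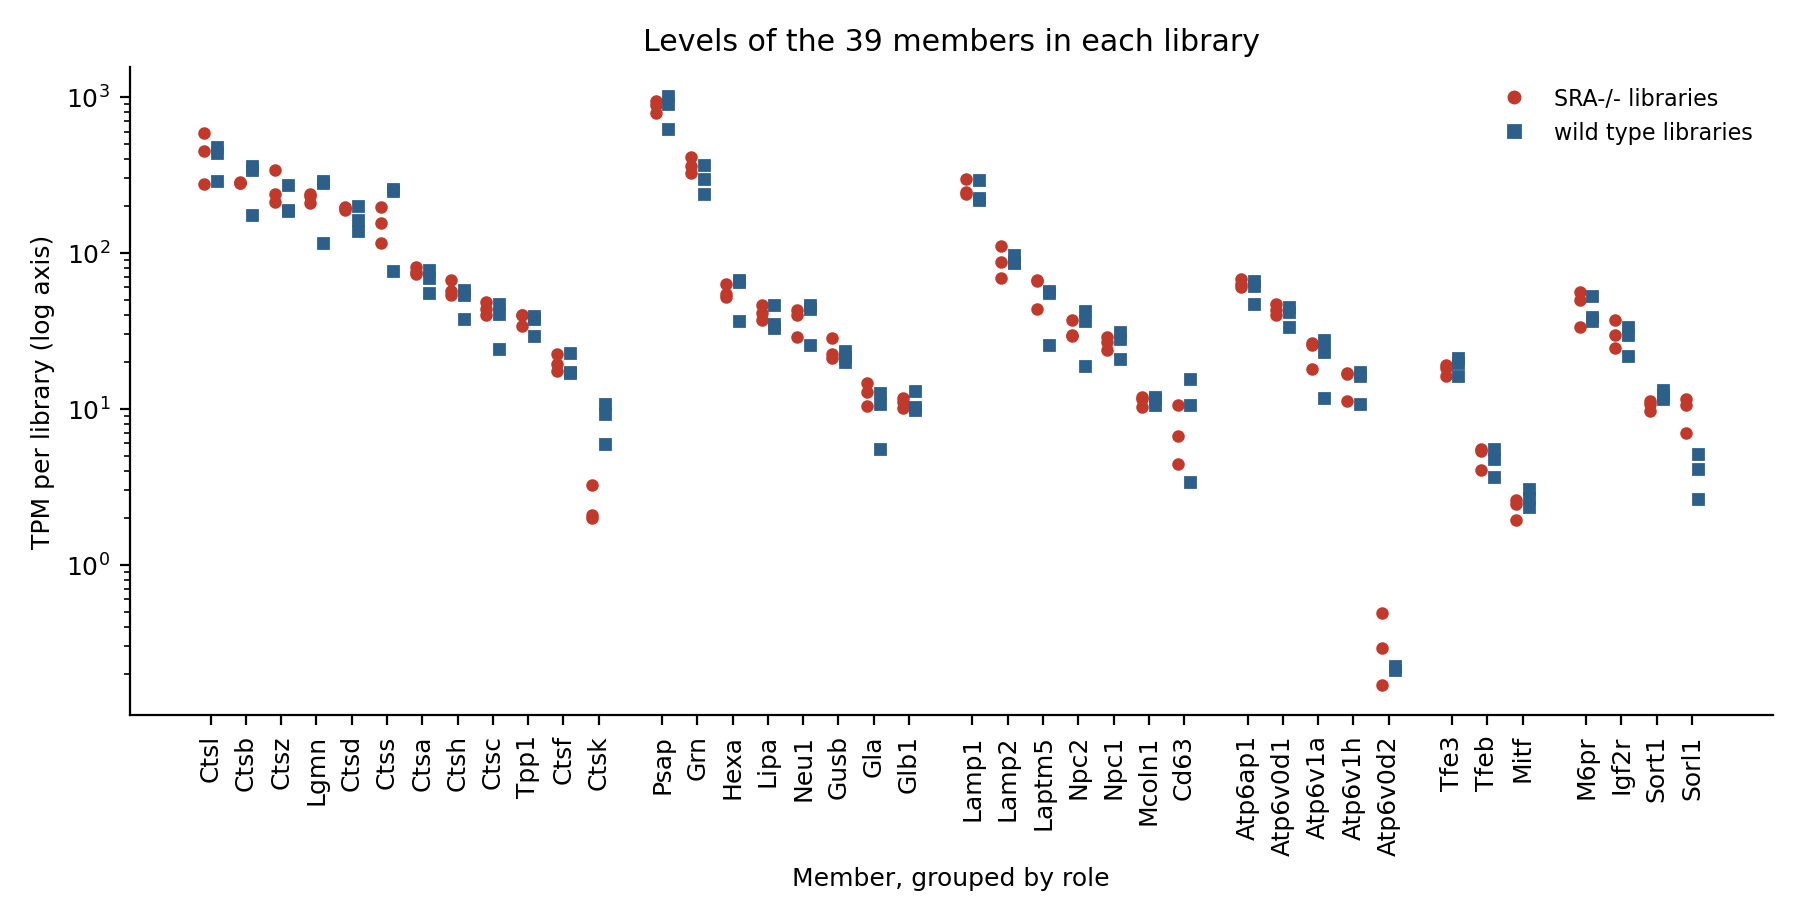
TPM of the 39 members in each library on a log axis, grouped by role; circles are SRA-/- and squares wild type libraries, and the wild type library with 0 counts of Atp6v0d2 is not drawn. Psap is highest, and in Ctsk, Sort1 and Sorl1 the 3 SRA-/- points and the 3 wild type points do not overlap in TPM; in CPM those of Sort1 do.

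The comparison asks how loss of scavenger receptor A bears on these genes after acetaminophen. By edgeR's quasi-likelihood test over 20541 genes, 0 of the 38 tested members passed an adjusted p of 0.05, while 10 genes (0.0487%) passed in the whole table. Before adjustment, 2 members had a p under 0.05, Sorl1 (higher) and Ctsk (lower), which is 2 of 38 against 3.22% of all tested genes. The same 2 were the members whose groups did not overlap in CPM, against 7.30% of all tested genes. Neither share sets the members apart from the other genes, and both genes had been noticed in earlier results of these data. The median log2 fold change of the members was 0.094, with 27 above and 11 below 0. That of all tested genes was -0.010, with 9924 above and 10617 below 0. Whether the 2 splits differ was not tested.

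For the other 36 tested members the log2 fold change lay between -0.40 (Cd63) and 0.44 (Gla), and for 30 of them it was under 0.25 in size. The lowest unadjusted p among them was 0.103, for Gla. The 95% interval of the fold change held 0 in all 36, and in 33 of the 38 tested members it lay within a 2-fold change either way, which is 1 on the log2 scale. The exceptions were Ctsk, Sorl1, Ctss, Cd63 and Laptm5.

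**Figure D2:**
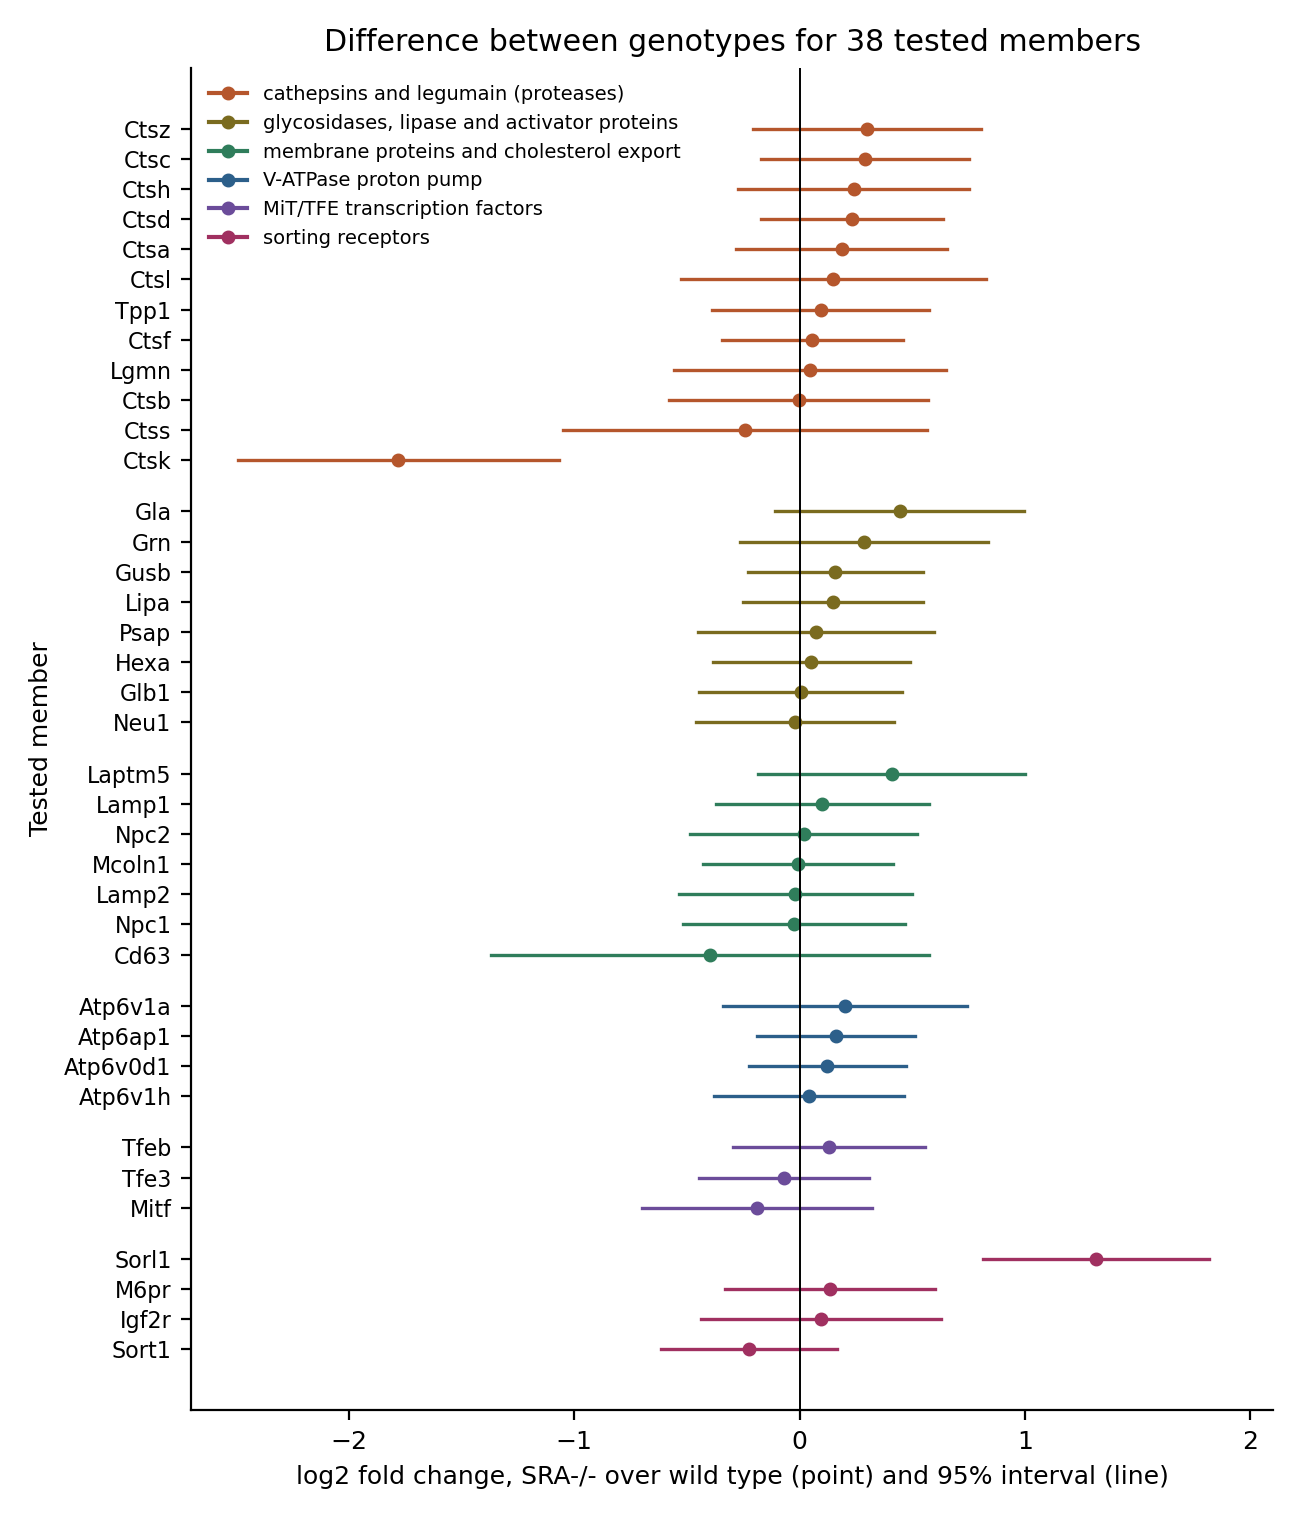
Log2 fold change of SRA-/- over wild type (points) with 95% intervals (lines) for the 38 tested members, coloured by role. The intervals of Ctsk, from -2.49 to -1.07, and Sorl1, from 0.81 to 1.81, do not reach 0, and the other 36 do.

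Among the 12 proteases, Ctsk was the member with the greatest difference. It encodes cathepsin K, a cysteine protease that degrades collagen and is best known from osteoclasts, where MITF and TFE3 drive it. Ctsk (chromosome 3, 95406567 to 95416673, mm39) had 56, 64 and 27 counts in SRA-/- and 125, 138 and 210 counts in wild type libraries. This is 1.22, 2.14 and 1.23 CPM in SRA-/- replicates 1, 2 and 3, and 4.30, 5.24 and 6.22 CPM in wild type replicates 1, 2 and 3. All SRA-/- values were below all wild type values. The means were 1.53 ± 0.53 CPM in SRA-/- and 5.25 ± 0.96 CPM in wild type libraries (SD, n = 3 each), 3.44-fold lower in SRA-/-. In edgeR's fit its log2 fold change was -1.78 ± 0.32 (SE; unadjusted p 0.000274, adjusted p 0.352). Adjusted over all genes, p was 0.000747 by DESeq2, 0.0138 by limma-voom with quality weights and 0.0118 by edgeR where low counts were not filtered. When edgeR's fit left out 1 library in turn, the adjusted p ran from 0.0740, with SRA-/- replicate 2 left out, to 0.9999, with SRA-/- replicate 1 or wild type replicate 2 left out. Per length, Ctsk was the lowest of the proteases in every library, at 1.99 to 3.23 TPM in SRA-/- and 5.94 to 10.8 TPM in wild type libraries.

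Cathepsin S (Ctss), which trims the invariant chain of MHC class II in antigen-presenting cells, lies 17424 bases beyond Ctsk on the same chromosome. It had 81.7, 117 and 64.2 CPM in SRA-/- and 49.9, 131 and 130 CPM in wild type libraries, so the groups overlapped. Its log2 fold change was -0.24 ± 0.36. Leaving out wild type replicate 1 gave -0.56 (unadjusted p 0.0392, adjusted p 0.701 by edgeR). Of 19 tested genes within 250 kb of Ctsk 0 passed the test, with log2 fold changes from -0.68 to 0.26, and 1, Setdb1, had an unadjusted p under 0.05.

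The remaining 10 proteases had log2 fold changes between -0.004 (Ctsb) and 0.30 (Ctsz). Ctsl, the most abundant, had 1125, 784 and 1558 CPM in SRA-/- and 895, 1050 and 1180 CPM in wild type libraries, with SRA-/- replicates at both ends of the range (log2 fold change 0.15 ± 0.30). Ctsb, the other major cysteine cathepsin, had 667, 742 and 696 CPM in SRA-/- and 506, 772 and 833 CPM in wild type libraries, where replicate 1 was lowest. Legumain (Lgmn), which cleaves after asparagine and processes other cathepsins, likewise had its lowest value in wild type replicate 1, at 128 CPM, against 199 to 234 CPM in SRA-/- libraries and 244 and 256 CPM in the remaining wild type libraries. The aspartic protease gene Ctsd had 186 ± 15.0 CPM in SRA-/- and 159 ± 14.1 CPM in wild type libraries (SD, n = 3 each). Cathepsin C (Ctsc), which activates the granule serine proteases of neutrophils and lymphocytes, had 105 ± 14.1 CPM in SRA-/- and 86.1 ± 17.5 CPM in wild type libraries. Ctsz and Ctsh, exopeptidases, were highest in SRA-/- replicate 3, at 198 and 122 CPM, and lowest in wild type replicate 3, at 104 and 65.1 CPM. Ctsa, which also protects the galactosidase and sialidase in a complex, Ctsf and the tripeptidyl peptidase gene Tpp1 had log2 fold changes of 0.19, 0.057 and 0.094.

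**Figure D3:**
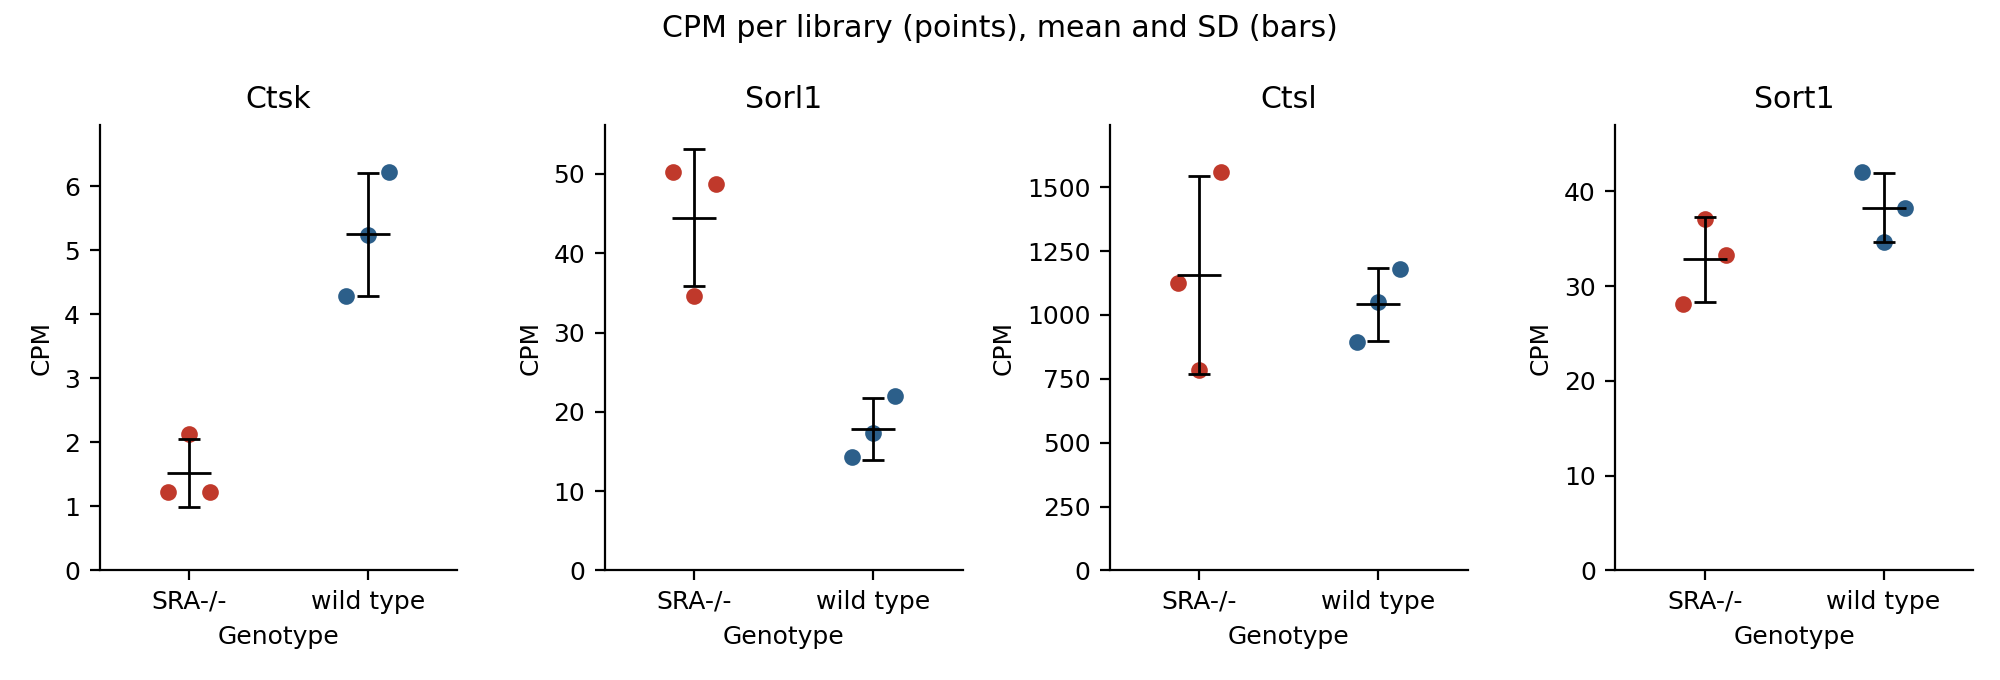
CPM in each library (points) with the mean and SD of 3 libraries (bars) for Ctsk and Sorl1, and for Ctsl and Sort1, other members of the same roles; axes start at 0. SRA-/- libraries lie at 1.22 to 2.14 CPM of Ctsk and 34.6 to 50.2 CPM of Sorl1, wild type libraries at 4.30 to 6.22 CPM of Ctsk and 14.3 to 22.0 CPM of Sorl1, while the groups overlap in Ctsl and Sort1.

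Of the 4 sorting receptors, Sorl1 had the greatest difference. It encodes SORLA, a receptor of the VPS10 family that moves cargo such as the amyloid precursor protein and lipoprotein lipase between Golgi, endosomes and lysosomes. Sorl1 (chromosome 9, 41876016 to 42035593, mm39) had 2306, 1036 and 1073 counts in SRA-/- and 415, 458 and 744 counts in wild type libraries. In CPM these are 50.2, 34.6 and 48.7 in SRA-/- replicates 1, 2 and 3 and 14.3, 17.4 and 22.0 in wild type replicates 1, 2 and 3. The lowest SRA-/- library was above the highest wild type library. The means were 44.5 ± 8.60 CPM in SRA-/- and 17.9 ± 3.91 CPM in wild type libraries (SD, n = 3 each), a ratio of 2.49. By edgeR the log2 fold change of Sorl1 was 1.31 ± 0.22 (SE; unadjusted p 0.000191, adjusted p 0.302). DESeq2 gave an adjusted p of 0.000889, limma-voom with quality weights 0.00711 and edgeR without a filter on low counts 0.00337. With 1 library left out, edgeR's adjusted p lay between 0.0718, with SRA-/- replicate 2 left out, and 0.9999, with SRA-/- replicate 1 or wild type replicate 2 left out.

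Within Sorl1 lies Gm16214, an antisense gene that overlaps 185 of the 11321 exon bases of Sorl1. It had 33, 13 and 11 counts in SRA-/- and 4, 1 and 4 counts in wild type libraries. Reads were counted without strand, so reads in these shared bases counted for neither gene. In the other exon bases of Gm16214, its reads cannot be told apart from those of unspliced Sorl1 transcripts. Of the 5 tested genes within 250 kb of Sorl1, 2 had an unadjusted p under 0.05, Gm16214 and Gm39321, and 0 passed the test. Gm39321 had 136, 12 and 16 counts in SRA-/- and 0, 7 and 12 counts in wild type libraries.

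Sort1 encodes sortilin, the VPS10 receptor that brings prosaposin and other cargo to lysosomes. It had 28.1, 37.1 and 33.2 CPM in SRA-/- and 42.0, 34.7 and 38.2 CPM in wild type libraries, with a log2 fold change of -0.22 ± 0.17. The groups overlapped in CPM (unadjusted p 0.230 by edgeR), while in TPM the SRA-/- libraries, at 9.63 to 11.2, lay below the wild type libraries, at 11.6 to 13.2. TPM serve here to compare genes, and the share of all tested genes without overlap in TPM was not counted. Both mannose 6-phosphate receptors, which bind the sugar tag on lysosomal enzymes, were higher per length than the VPS10 receptors. M6pr, the cation-dependent form, had 80.1, 61.0 and 95.6 CPM in SRA-/- and 72.4, 81.6 and 61.8 CPM in wild type libraries, and Igf2r, the cation-independent form, had 116 ± 21.2 CPM in SRA-/- and 109 ± 28.4 CPM in wild type libraries. Their log2 fold changes were 0.13 ± 0.21 and 0.093 ± 0.24, and whether they differ from that of Sorl1 was not tested.

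Cell type markers differed between the same libraries. All 7 tested neutrophil markers of 10 had log2 fold changes above 0 and an unadjusted p under 0.05, though none passed the adjusted threshold, and the 10 summed to 351, 84.9 and 455 TPM in SRA-/- and 28.8, 72.5 and 93.3 TPM in wild type libraries; Ly6g was at 0 counts in SRA-/- replicate 1 and wild type replicate 2, and Camp in SRA-/- replicate 2 and wild type replicates 2 and 3. SRA-/- replicate 2, whose neutrophil sum lay within the wild type range, also had the lowest Sorl1 level of the SRA-/- libraries, 34.6 CPM, which was above the 14.3 to 22.0 CPM of the wild type libraries. All 6 B cell markers were above 0, with sums of 17.9 to 26.6 TPM in SRA-/- and 9.09 to 12.5 TPM in wild type libraries and none at 0. The 9 Kupffer cell markers had 4 fold changes above and 5 below 0, with sums of 832 to 1377 TPM in SRA-/- and 527 to 1398 TPM in wild type libraries. Of the tested markers, 6 of 7 for T and NK cells, 8 of 10 pan-macrophage and 5 of 8 for recruited monocytes and macrophages were above 0. Of 7 dendritic cell markers, 3 were above and 4 below 0. The TPM sums of each of these lists overlapped between genotypes. The part of neutrophil, B cell or other leukocyte RNA in the Sorl1 difference was not tested.

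In the direction of Ctsk, all 10 sinusoidal endothelial markers had log2 fold changes below 0, and their sums were 993 to 1275 TPM in SRA-/- and 876 to 1965 TPM in wild type libraries. Of the 11 stellate cell and fibroblast markers 8 were below 0, with sums of 217 to 366 TPM in SRA-/- and 198 to 414 TPM in wild type libraries. All 16 pancreatic acinar markers were below 0, with sums of 9.69, 593 and 6.38 TPM in SRA-/- and 831, 973 and 1857 TPM in wild type libraries; 8 of the 16, Prss2 and Pnlip among them, were at 0 in both SRA-/- replicates 1 and 3. SRA-/- replicate 2, with 593 TPM of acinar markers, also had the highest Ctsk level of the SRA-/- libraries, 2.14 CPM, which was below the 4.30 to 6.22 CPM of the wild type libraries. No endothelial or stellate marker was at 0 in any library. The part of any of these cells in the Ctsk difference was not tested.

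None of the 8 glycosidase, lipase and activator genes passed the test, and the groups overlapped in all 8. Psap had 940, 949 and 1055 CPM in SRA-/- and 817, 1035 and 945 CPM in wild type libraries, a log2 fold change of 0.074 with a 95% interval from -0.45 to 0.60. Gla, alpha-galactosidase A, had the highest fold change of the group, with 18.6, 18.3 and 13.8 CPM in SRA-/- and 8.66, 13.0 and 15.7 CPM in wild type libraries (0.44 ± 0.25, overlapping groups). Leaving out wild type replicate 3 gave 0.64 (unadjusted p 0.0273, adjusted p 0.9998 by edgeR). Grn had 523 ± 55.6 CPM in SRA-/- and 429 ± 99.8 CPM in wild type libraries, where replicate 3 was low at 314 CPM. Glb1 (beta-galactosidase), Gusb (beta-glucuronidase), Hexa (the alpha chain of beta-hexosaminidase), Neu1 (sialidase) and Lipa (acid lipase, which frees cholesterol from lipoprotein esters) had log2 fold changes from -0.020 to 0.16.

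Of the 7 genes for membrane proteins and cholesterol export, 3 had log2 fold changes above and 4 below 0, and none passed the test. Lamp1 had 255, 281 and 326 CPM in SRA-/- and 288, 294 and 223 CPM in wild type libraries, and Lamp2, a lysosomal coat protein like it that also serves chaperone-mediated autophagy, had 347 ± 76.1 CPM in SRA-/- and 352 ± 41.9 CPM in wild type libraries. Npc1 and Npc2, which together pass cholesterol out of the lysosome, had log2 fold changes of -0.026 and 0.018, and Mcoln1, a calcium channel of the lysosomal membrane, -0.009. Laptm5, a lysosomal protein of leukocytes, had 96.0, 111 and 67.7 CPM in SRA-/- and 46.1, 80.8 and 80.2 CPM in wild type libraries (0.41 ± 0.26). Cd63, a tetraspanin of late endosomes and exosomes, varied most among the tested members after Ctsk, at 15.0, 7.08 and 10.1 CPM in SRA-/- and 5.94, 14.6 and 22.0 CPM in wild type libraries. The log2 fold change of Cd63 was -0.40 ± 0.43, and it rested on single libraries: leaving out wild type replicate 1 gave -0.76 (unadjusted p 0.0355, adjusted p 0.692 by edgeR), leaving out SRA-/- replicate 1 gave -0.73, leaving out SRA-/- replicate 2 gave -0.17 and leaving out wild type replicate 3 gave 0.069. Its value is uncertain, since the annotation holds a processed copy, Cd63-ps, with 133 to 247 counts in SRA-/- and 85 to 267 counts in wild type libraries, and under the headers' settings reads aligned to several places were not counted. The same holds for M6pr and M6pr-ps.

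All 4 tested genes of the proton pump had log2 fold changes above 0, and none passed the test. Atp6ap1, an accessory subunit, had 73.9, 80.6 and 83.7 CPM in SRA-/- and 68.4, 74.1 and 70.4 CPM in wild type libraries (0.16 ± 0.16). Atp6v0d1, the common d subunit of the membrane sector, had 31.8 ± 2.31 CPM in SRA-/- and 29.2 ± 0.92 CPM in wild type libraries (SD, n = 3 each), and it varied least of all tested members, with a highest library only 1.18 times the lowest. Atp6v1a, which carries the ATP site, and Atp6v1h, a regulatory subunit, had log2 fold changes of 0.20 and 0.043.

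No gene of the 3 transcription factors passed the test. Tfe3, the most abundant per length, had 57.6, 74.5 and 72.4 CPM in SRA-/- and 72.0, 72.9 and 69.5 CPM in wild type libraries, with a log2 fold change of -0.069 and a 95% interval from -0.45 to 0.31. Tfeb had 11.6 ± 1.33 CPM in SRA-/- and 10.6 ± 0.91 CPM in wild type libraries, and Mitf had 5.94 ± 1.13 CPM in SRA-/- and 6.76 ± 0.37 CPM in wild type libraries (SD, n = 3 each). These are RNA levels, and the activity of these factors is set largely by their phosphorylation and entry into the nucleus. The 7 members with TCACGTGA in their window had log2 fold changes from -0.009 to 0.44, with a median of 0.19, and the 25 with a window without it had a median of 0.074 and included both Ctsk and Sorl1.

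Libraries of 1 genotype also differed among themselves. In the median member, the highest library was 1.57 times the lowest, against 1.95 times in the median tested gene. Wild type replicate 1 was the lowest library for 15 tested members and wild type replicate 3 for 14, while SRA-/- replicate 3 was the highest for 18. Wild type replicate 1 was lowest in Ctsb, Ctss, Lgmn, Laptm5 and Cd63, among others. It was also lowest in the 10 pan-macrophage markers, which summed to 681 TPM there. Those sums were 992 to 1788 TPM in SRA-/- and 1533 and 1737 TPM in the remaining wild type libraries. Its sums were lowest too for Kupffer cell (527 TPM), sinusoidal endothelial (876 TPM) and stellate cell (198 TPM) markers. The same held for neutrophil, cholangiocyte, B cell, T and NK cell and dendritic cell markers, but not for hepatocyte, recruited monocyte or acinar markers. SRA-/- replicate 3, highest for 18 members, had the next lowest pan-macrophage sum, 992 TPM. Wild type replicate 3, lowest in Ctsa, Ctsh, Grn, Lamp1 and Npc1, was lowest in the hepatocyte markers, at 39484 TPM. The part of RNA of macrophages, hepatocytes or any other cell type in these values was not tested.

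**Figure D4:**
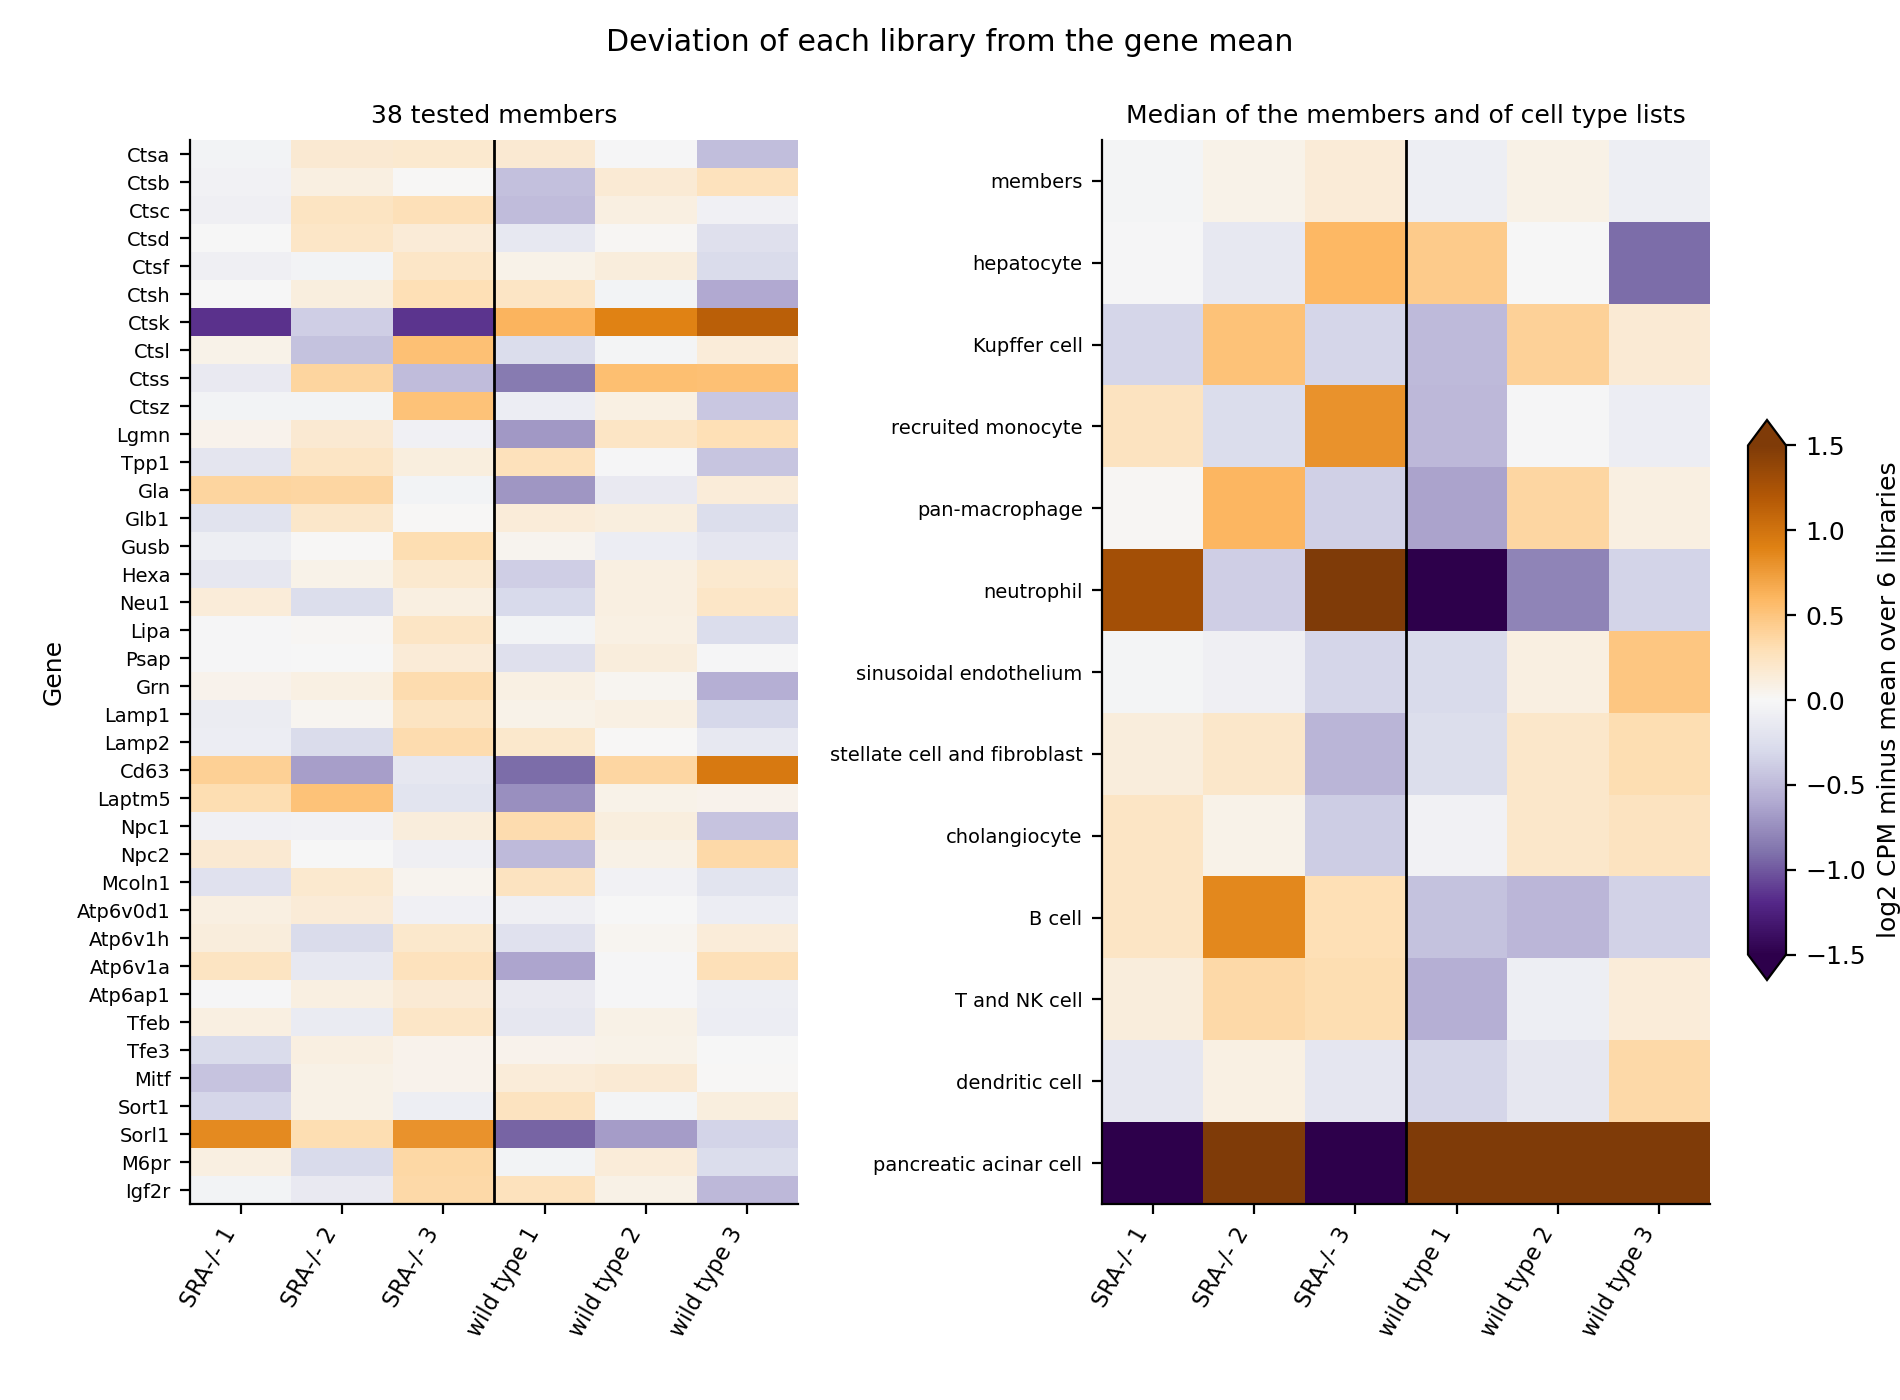
Log2 CPM minus its mean over the 6 libraries, with SRA-/- libraries left of the line: each tested member (left panel) and the median of the members and of each cell type list (right panel); the scale ends at 1.5 either way. Ctsk and Sorl1 split by genotype, and the members' median stays between -0.09 and 0.15. The median of every cell type list differs more between libraries, most of all those of acinar cells and neutrophils.

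Genes of the same pathway outside the 39 also gave no call. Of 174 such genes 161 were tested, 0 passed the test and 4 had an unadjusted p under 0.05, against 3.22% of all tested genes. All 4 were higher in SRA-/-, as were 477 of the 661 genes under that p in the whole table. The 161 genes had a median log2 fold change of 0.042, and 95 of them were above 0. The 38 other hydrolases and activators had a median of 0.10; Ctse, an endosomal aspartic protease, had 60, 38 and 64 counts in SRA-/- and 14, 25 and 26 counts in wild type libraries (log2 fold change 1.30 ± 0.45, unadjusted p 0.0182 and adjusted p 0.9999 by edgeR). Among 24 tested membrane proteins, with a median of 0.086, Cd68, the macrophage lysosomal glycoprotein that is also among the pan-macrophage markers, had 39.4 ± 3.18 CPM in SRA-/- and 28.9 ± 3.89 CPM in wild type libraries (0.45 ± 0.17, unadjusted p 0.0271 and adjusted p 0.9999 by edgeR). The 16 other pump subunits had a median of 0.10, with Atp6v0c, which forms the proton-carrying ring, at 0.31 ± 0.16.

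Genes for tagging and retrieving enzymes, which add mannose 6-phosphate or form the GGA and retromer coats, had a median of -0.037 over 19 tested genes, and Vps35 was at -0.14 ± 0.16. The median was -0.041 over 22 regulators of mTORC1 and TFEB and -0.027 over 24 autophagy genes, with 0 genes of an unadjusted p under 0.05 in any of these lists. Of 14 genes for protease inhibitors, not all of them inhibitors of the member cathepsins, 6 were tested. Among them were Cst3 (cystatin C) at 0.17 ± 0.17 and Slpi at 0.74 ± 0.40, both with overlapping groups.

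Genes listed as possible targets of MITF and TFE factors in osteoclasts and lipid-laden macrophages went both ways. Osteoclasts are the setting in which Ctsk is best known. Whether each listed gene is a target of these factors here was not tested. Of 13 tested, 8 had log2 fold changes above and 5 below 0, with a median of 0.072, and 0 passed the test. Dcstamp, a fusion protein of osteoclasts, had the lowest, at -0.63 ± 0.62, with 15, 29 and 12 counts in SRA-/- and 52, 13 and 18 counts in wild type libraries. Its relative Ocstamp was the 1 gene of the 13 whose SRA-/- libraries all lay below the wild type libraries in CPM (-0.33 ± 0.34). It had 45, 25 and 17 counts in SRA-/- and 33, 26 and 39 counts in wild type libraries. In 2 of the 13, Nfatc1 and Gpnmb, all SRA-/- libraries lay above. Of all tested genes, 7.30% had groups without overlap. Nfatc1 had 29.4, 34.8 and 28.6 CPM in SRA-/- and 26.4, 26.7 and 25.5 CPM in wild type libraries (0.24 ± 0.16). Acp5 was at 0.23 ± 0.23, with overlapping groups. Dcstamp, Ocstamp, Nfatc1 and Acp5 were named after their values were seen. Gpnmb, a glycoprotein of lipid-laden macrophages, had 82, 121 and 42 counts in SRA-/- and 14, 30 and 36 counts in wild type libraries, higher in each SRA-/- library (1.52 ± 0.46, unadjusted p 0.00831 and adjusted p 0.997 by edgeR). Mmp9, a gelatinase that neutrophils also carry in granules and that the neutrophil list holds too, had 13.4 ± 6.73 CPM in SRA-/- and 4.32 ± 1.88 CPM in wild type libraries (1.63 ± 0.45, unadjusted p 0.00494 and adjusted p 0.841 by edgeR). The part of neutrophil RNA, whose sums are given above, in the Mmp9 value was not tested.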

How the data were processed

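Raw counts per gene, deposited 1 file per library, were made by the authors with featureCounts 2.0.2 over exons by gene name on GENCODE M26, without strand and without counting pairs as fragments, per the file headers. STAR, FastQC and build mm39 are named in the submitters' processing notes. A fragment mostly counts as 2 mates: 68.5% to 71.9% of counts from 1 to 4 were even, so counting error is larger than counts alone give. Exon bases shared with another gene give no counts, which lowers the TPM of 13 members, most of all Ctsd (34.4% of its bases) and Ctsl (26.8%).

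Counts were tested with edgeR 4.0.16 in R 4.3.3 (filterByExpr, TMM, glmQLFit robust, glmQLFTest) on group alone, over 20541 genes, with Benjamini-Hochberg adjustment over all of them and a threshold of 0.05. The SE is the size of the fold change over the root of F, and 95% intervals came from the fit's degrees of freedom. The procedure was checked on simulated data. Alternatives used DESeq2 1.42.0, limma 3.58.1, other scaling and filters, fewer genes, a replicate block and fewer libraries. Every pair of libraries differed beyond sampling noise (chi-square per degree of freedom at least 30.9).

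Members and lists were chosen with earlier results of these data known. Full values are given for members with an unadjusted p under 0.05 or, at a log2 fold change of at least 0.5, without overlap, and for the most abundant of each role; others were described after their values were seen. Of each pathway list up to 3 genes by p with a mean of at least 1 CPM could be named. Dcstamp, Ocstamp, Nfatc1 and Acp5 were named beyond that rule. For 1 symbol no match was found, and Spink3 was matched as Spink1 through RefSeq synonyms. Protein sequences were not used here. The titles call the replicates biological. Figures were drawn with matplotlib 3.10.9.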

Additional observations from a re-analysis of the deposited data

How the results depend on the processing

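No member passed edgeR's test under the other scalings, the filter of 1 CPM in 3 libraries, the removal of mitochondrial and hepatocyte genes or any single library left out. Ctsk and Sorl1 passed, 2 members in each case, by DESeq2, by limma-voom with quality weights, with no filter on low counts and with the pair of SRA-/- replicate 2 and wild type replicate 1 left out, a pair picked on measured expression. Both kept their direction, from -2.22 to -1.63 for Ctsk and from 1.18 to 1.49 for Sorl1, and an unadjusted p under 0.05 in all 15 alternatives. The cause was not tested. Members with an unadjusted p under 0.05 numbered 4 by limma-voom (Ctss and Gla beside Ctsk and Sorl1). With 1 library left out they numbered 2 to 4, the highest without wild type replicate 1 (Ctss and Cd63 beside them). Over all genes, calls numbered 59 by DESeq2, 99 by limma-voom, 32 with no filter on low counts and 101 without that pair. With 1 library left out they ran from 3 without SRA-/- replicate 3 to 40 without SRA-/- replicate 2, and were 4 without SRA-/- replicate 1 or wild type replicate 2. Of the 161 tested pathway genes 1 was called with no filter on low counts (Stfa2l1, log2 fold change 3.52) and 1 without the pair (Mmp9, 1.77). Libraries of the same replicate number did not deviate together (r = -0.29, -0.14 and -0.13 across genes), so no sign of pairing by number was seen. Between libraries of different numbers and genotypes, r ran from -0.086 to 0.26. Whether a number stands for a shared day or preparation was not tested. With the replicate number as a block, 5 genes and 0 members were called, and Ctsk and Sorl1 had adjusted p-values of 0.805 and 0.695 by edgeR. The median log2 fold change of the members ran from 0.010 without SRA-/- replicate 3 to 0.15 without wild type replicate 2. Atp6v0d2, removed by the filter on low counts, was fitted with no filter (log2 fold change 1.06 ± 0.87, unadjusted p 0.231 and adjusted p 0.99998 by edgeR) and by DESeq2 (1.07 ± 1.04, unadjusted p 0.303 and adjusted p 0.99998).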
